A study of Sus scrofa with 48 samples.

Results

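The extracellular matrix genes described here are 54 named structural proteins, matrix-modifying enzymes and inhibitors whose transcripts were sought in dorsal subcutaneous adipose tissue (SCAT) of growing pigs. Among these 54 genes, 52 had at least 1 named probe on the array and 51 were tested, out of 11098 genes tested in all. The laminin-associated gene *NID2* and the crosslinking gene *LOXL1* had no probe with their name, and the only probe for *FBLN2*, which encodes an elastic fibre component, was not kept. Probes were kept if the scanner software scored them well above background on 9 or more of a group's 12 arrays, in any of the groups, and the brightest kept probe stood for its gene. The probes of 50 of the 51 genes tested were well above background on all 48 arrays, so the filter removed almost no member and none passed through 1 group alone. The exception was *FMOD*, well above background on 46 arrays.

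All animals were Large White barrows aged 132 days at sampling, per the labels and the study's methods, and they came from 2 lines under opposite selection on residual feed intake (RFI), the feed a pig eats beyond what its growth predicts. Low RFI pigs are the efficient ones. Within each line, 12 pigs ate a high-fat high-fiber (HF) diet and 12 a low-fat high-starch (LF) diet, which gave LF low RFI, HF low RFI, LF high RFI and HF high RFI pigs, with 1 array per pig. The study compared these groups to describe how diet and line act on the adipose transcriptome, and since fat, fiber and starch were all exchanged together in the diets, their separate parts cannot be told apart here. All groups shared the sex, the breed and free access to feed. The study reports that HF pigs nevertheless ate less than LF pigs, were lighter at the end and had a smaller share of subcutaneous fat. These differences cannot be told apart from the diets here.

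The matrix of fat tissue is a mesh that surrounds each adipocyte and ties adipocytes into lobules. Fibrillar collagens (types I, III and V) give it tensile strength, beaded filaments of collagen VI link the fibrils to the cell surface, and a basement membrane of collagen IV, laminins and nidogen lies directly on each adipocyte and on the endothelium. Small proteoglycans and fibril-associated collagens set how fibrils pack, elastin on a scaffold of fibrillin makes the tissue recoil, lysyl hydroxylases, chaperones and lysyl oxidases fold and crosslink the collagens, and metalloproteinases under the control of TIMP inhibitors take the mesh apart. Fibroblasts and adipocyte progenitors are known as the main source of these proteins, and adipocytes make part of the basement membrane and of collagen VI.

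The probes are oligonucleotides of 60 bases. The following ones are shown because they hold the repeat of the triple helix, in which glycine recurs with a period of 3 codons. The sequences are those deposited with the arrays, 5′ to 3′, and capitals mark the glycine codons that fall on this period in the best reading frame, and other glycine codons stay in lower case.
COL1A2: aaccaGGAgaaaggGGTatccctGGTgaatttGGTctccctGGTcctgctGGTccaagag
COL4A1: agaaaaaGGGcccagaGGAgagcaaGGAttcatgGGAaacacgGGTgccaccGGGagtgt
COL6A3: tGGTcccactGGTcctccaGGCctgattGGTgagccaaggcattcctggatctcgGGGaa
COL14A1: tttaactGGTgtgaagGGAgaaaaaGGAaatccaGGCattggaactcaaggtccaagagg
In the *COL1A2* probe, glycine stood at 6 of 6 such places, and in the *COL4A1* probe at 6 of 6. The *COL6A3* probe held glycine at 5 of 7 places and the *COL14A1* probe at 4 of 6. In the *COL6A3* and *COL14A1* probes the repeat is interrupted. The source of the interruption was not tested, and the last codon marked for *COL6A3* is therefore uncertain. None of these 4 was the brightest probe of its gene, and each gave a second reading of it. Their HF minus LF differences on the log2 scale were 0.38 ± 0.13 (SE) for *COL1A2* and 0.23 ± 0.08 for *COL4A1*, both called among probes. They were 0.37 ± 0.14 for *COL6A3* and 0.36 ± 0.18 for *COL14A1*, which were not called.

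The arrays were checked first. Between 62.2% and 81.9% of the non-control spots of an array were well above background and no spot was saturated. Each of the 6 slides held 2 arrays of every group, so that slide and group were not confounded. Of the 9 adipocyte markers tested, all were well above background on 48 arrays, and the median of that list lay between 7.57 and 8.37 (log2 signal minus the array median, the scale of every level given here) over the 48 pigs. Values of different genes come from different probes and are not compared as levels. In 3 arrays, namely HF low RFI replicate 8, LF low RFI replicate 9 and LF high RFI replicate 11, the fast muscle light chain *MYLPF* stood between 4.14 and 4.84, against -0.35 to 1.42 in the other 45. In another 3 arrays, HF low RFI replicate 2, HF high RFI replicate 5 and LF low RFI replicate 4, the epidermal desmosome gene *DSP* stood between 2.04 and 5.29, against -3.12 to 0.57 in the rest. Results that rest on these arrays are given with and without them.

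In SCAT of HF pigs, 10 matrix genes were up-regulated and 1 was down-regulated compared with LF pigs, in the fit over both lines. The genes that rose were the 3 chains of collagen VI (*COL6A1*, *COL6A2* and *COL6A3*), the fibrillar collagen chain *COL1A2*, the fibril-associated collagen *COL12A1*, the basement membrane chains *COL4A2* and *LAMA2*, elastin (*ELN*), the small proteoglycan osteoglycin (*OGN*) and the matricellular protein periostin (*POSTN*). The gene that fell was the metalloproteinase inhibitor *TIMP3*. The cut-offs of the study were used to call a gene: its fold change had to exceed 1.1, its raw p to be below 0.01 and its p after Benjamini-Hochberg adjustment over all genes tested to be below 0.08. By these, 21.6% of the matrix genes tested were called, beside 12.6% of all genes. The share called higher in HF pigs was 19.6% among matrix genes and 3.28% among all genes, and the share called lower among all genes was 9.34%. Differences are given as HF minus LF on the log2 scale ± SE, and an adjusted p is that over all genes. The median difference over the 51 matrix genes was 0.11 and that over all genes was -0.039, and 35 of 51 matrix genes lay above 0, against 37.7% of all genes. In bulk tissue, a change in the number of cells of a type and a change in RNA per cell cannot be told apart. The split between higher and lower calls over all genes moved with the scaling. It was 364 higher of 1400 called with the array median, 621 of 1193 with the 75th percentile and 490 of 1243 with quantile normalization, while the median of the matrix genes was 0.15 under both of those scalings.

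**Figure D1:**
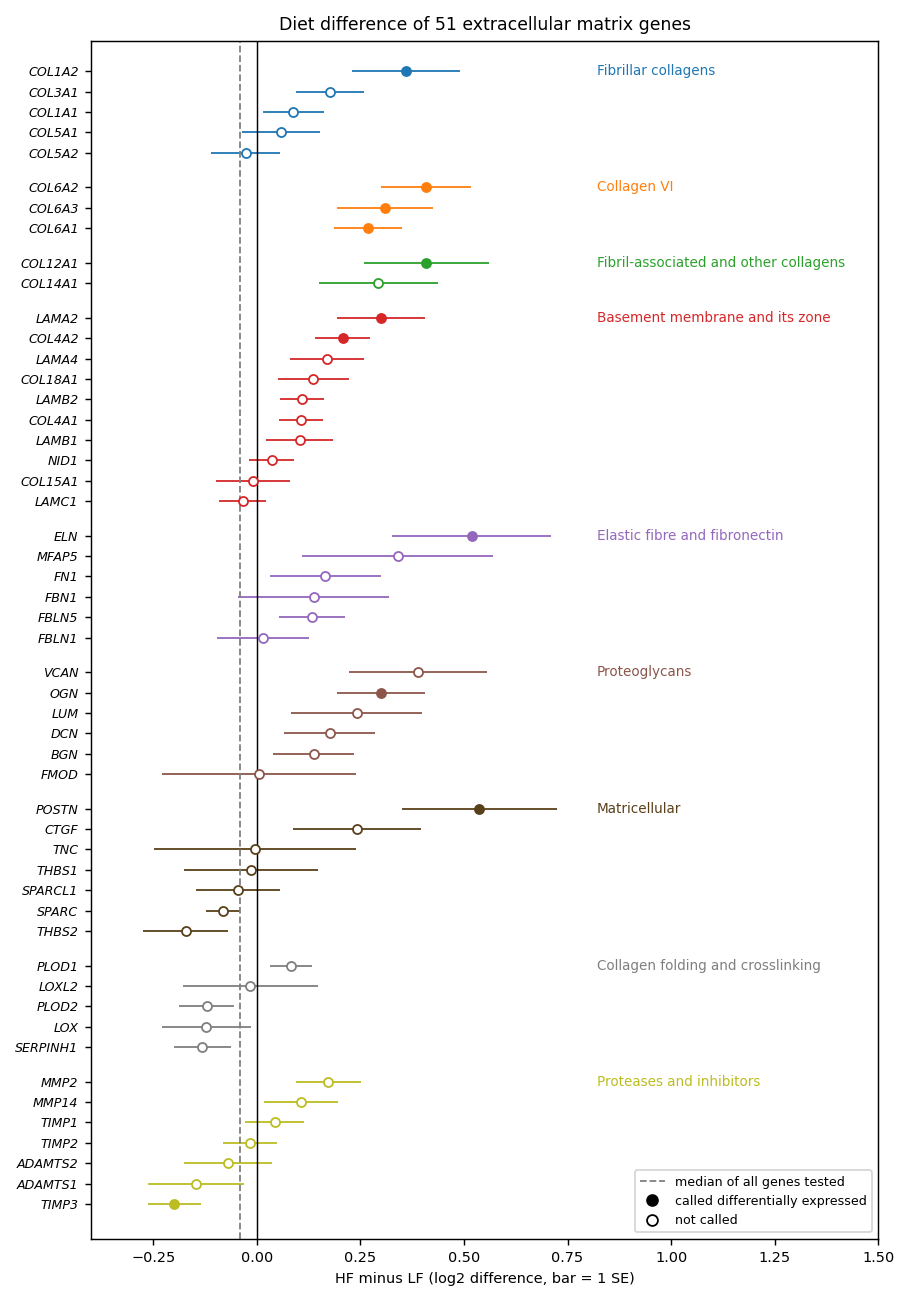
Each point is the HF minus LF difference of 1 matrix gene in SCAT (log2, 24 pigs per diet, bars 1 SE), grouped and coloured by role, with filled points for called genes and a dashed line at the median of all genes tested. The collagen VI chains lie together at 0.27 to 0.41, and 4 of the 5 folding and crosslinking genes lie below 0.

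All 3 collagen VI chains, which assemble into 1 filament, were up-regulated in HF pigs. *COL6A1* ranged from 0.80 to 1.81 in HF pigs, with a median of 1.34, and from 0.46 to 1.79 in LF pigs, with a median of 1.17. The difference was 0.27 ± 0.082 (limma, adjusted p = 0.0274), and 21 of the 24 HF pigs lay above the LF mean. *COL6A2* ranged from -0.39 to 0.97 in HF pigs, with a median of 0.40, and from -0.92 to 1.06 in LF pigs, with a median of 0.0022. The HF low RFI pigs had a median of 0.39 and the LF low RFI pigs of -0.15, and in the high RFI line these medians were 0.40 and 0.086. The diets overlapped in both lines, and 4 LF pigs lay below every HF pig. The *COL6A2* difference was 0.41 ± 0.11 (limma, adjusted p = 0.0109), the smallest adjusted p among the matrix genes. *COL6A3* ranged from 5.27 to 6.91 in HF pigs, with a median of 6.54, and from 5.04 to 6.87 in LF pigs, with a median of 6.18. Its difference was 0.31 ± 0.12 (limma, adjusted p = 0.072), close to the threshold, and 20 of 24 HF pigs lay above the LF mean. Within every one of the 6 slides, *COL6A1* and *COL6A2* were higher in HF pigs, with differences of 0.094 to 0.44 and 0.20 to 0.78. *COL6A3* was higher in 4 of 6 slides. With the slide or the replicate number as a block, *COL6A3* kept its difference of 0.31 (limma, adjusted p = 0.0578 and 0.0674) but was no longer called, because its raw p missed the cut-off.

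**Figure D2:**
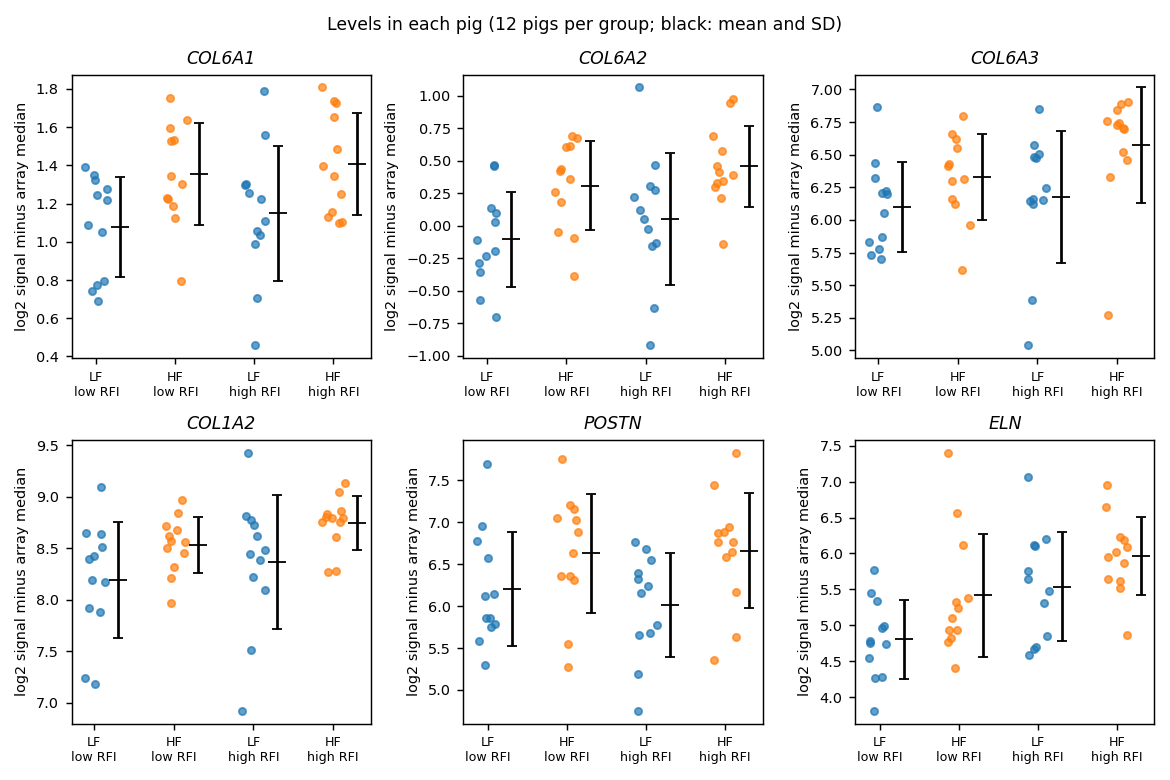
Levels of 6 up-regulated matrix genes in each pig (points, 12 per group, log2 signal minus the array median, with an axis of its own for each gene), with the mean and SD of each group in black. The diets overlap in every panel, and for *COL1A2* 6 LF pigs lie below the lowest HF pig at 7.97.

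Among the fibrillar collagens, *COL1A2*, which encodes the second chain of collagen I, was up-regulated. It ranged from 7.97 to 9.13 in HF pigs, with a median of 8.69, and from 6.92 to 9.43 in LF pigs, with a median of 8.41. The difference was 0.36 ± 0.13 (limma, adjusted p = 0.0644), and 6 of the 24 LF pigs lay below every HF pig, while no HF pig lay above the highest LF pig. The low end of the range thus held LF pigs alone. The partner chain *COL1A1* gave 0.088 ± 0.074 (limma, adjusted p = 0.48), *COL3A1* 0.18 ± 0.082 (limma, adjusted p = 0.16), *COL5A1* 0.058 ± 0.094 (limma, adjusted p = 0.741) and *COL5A2* -0.027 ± 0.083 (limma, adjusted p = 0.874). None of these 4 was called, and whether they differ from *COL1A2* was not tested. The fibril-associated collagen *COL12A1*, which lies on the surface of collagen I fibrils, rose. It ranged from 3.09 to 4.74 in HF pigs, with a median of 4.15, and from 2.18 to 4.38 in LF pigs, with a median of 3.73, with a difference of 0.41 ± 0.15 (limma, adjusted p = 0.0696). In 6 HF pigs it exceeded the highest LF pig. The call of *COL12A1* was lost under 11 of 19 alternatives. Among these were the scan date as a block, the mean of all probes, array weights and analysis of variance. *COL14A1*, a related collagen of the same fibril surfaces, gave 0.29 ± 0.14 (limma, adjusted p = 0.184) and was not called.

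In the basement membrane and its zone, 2 of 10 genes were called, both higher in HF pigs, and 8 of 10 lay above 0. *COL4A2*, a chain of the collagen IV sheet, ranged from 6.52 to 7.41 in HF pigs, with a median of 6.90, and from 6.22 to 7.12 in LF pigs, with a median of 6.67. Its difference was 0.21 ± 0.066 (limma, adjusted p = 0.0331), which is 1.15-fold. *COL4A1*, the other chain of the same trimer, which lies next to *COL4A2* on the chromosome, gave 0.11 ± 0.053 (limma, adjusted p = 0.192) and was not called. *LAMA2*, the laminin chain best known from muscle basement membranes, ranged from -0.98 to 0.42 in HF pigs, with a median of -0.073, and from -1.02 to 0.44 in LF pigs, with a median of -0.38, with a difference of 0.30 ± 0.11 (limma, adjusted p = 0.0591). The remaining laminin chains lay between -0.034 (*LAMC1*) and 0.17 (*LAMA4*), and nidogen 1 (*NID1*), which joins laminin to collagen IV, was at 0.035. The collagens of the surrounding zone *COL15A1* and *COL18A1* were at -0.0095 and 0.14. None of these passed the test. Under other settings, *COL4A1* was called with the 75th percentile scaling (0.15) and the mean of all probes (0.16), *LAMB2* with the 75th percentile scaling (0.15), quantile normalization (0.16) and array weights (0.16), and *LAMA4* with quantile normalization (0.23), all higher in HF pigs.

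Of the 6 elastic fibre and fibronectin genes, all lay above 0 and 1 was called. *ELN*, the elastin core of the fibre, ranged from 4.40 to 7.40 in HF pigs, with a median of 5.63, and from 3.81 to 7.06 in LF pigs, with a median of 4.97. The difference was 0.52 ± 0.19 (limma, adjusted p = 0.0706), or 1.43-fold, and 17 of 24 HF pigs lay above the LF mean. By scan date it was 0.089 on the first date and 0.95 on the second, each with 12 pigs per diet, and whether the dates differ was not tested. With the slide or the replicate number as a block the *ELN* difference stayed at 0.52 (limma, adjusted p = 0.0676 and 0.0564), and the call was lost on the raw p. The scaffold genes *FBN1* and *MFAP5* gave 0.14 ± 0.18 and 0.34 ± 0.23, and fibronectin (*FN1*) gave 0.17 ± 0.13. None of these was called.

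All 6 proteoglycan genes lay above 0 and 1 was called. *OGN*, a small leucine-rich proteoglycan of collagen fibrils, ranged from 3.90 to 4.85 in HF pigs, with a median of 4.47, and from 3.01 to 4.95 in LF pigs, with a median of 4.25. Here 8 LF pigs lay below every HF pig, and 22 of 24 HF pigs lay above the LF mean. The difference was 0.30 ± 0.11 (limma, adjusted p = 0.0578), and the call was lost with the array position as a block, among other settings. The large proteoglycan *VCAN*, which holds water in loose matrix, gave 0.39 ± 0.17 (limma, adjusted p = 0.126), and *LUM*, *DCN* and *BGN*, which bind and space fibrils, gave 0.24, 0.18 and 0.14. *FMOD* was at 0.0057.

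Matricellular proteins, which sit in the matrix and signal to cells rather than bear load, had 1 of 7 genes called. *POSTN*, which binds collagen I and fibronectin and is known from remodelling tissue, had the largest diet difference of all 51 genes. It ranged from 5.27 to 7.83 in HF pigs, with a median of 6.76, and from 4.75 to 7.69 in LF pigs, with a median of 6.13. Medians by group were 6.76 in HF low RFI, 5.99 in LF low RFI, 6.76 in HF high RFI and 6.20 in LF high RFI pigs. The difference was 0.54 ± 0.19 (limma, adjusted p = 0.0532), or 1.45-fold, with 20 of 24 HF pigs above the LF mean. Of the other 6, *CTGF* was at 0.24 ± 0.15 and 5 lay below 0, down to -0.17 ± 0.10 for thrombospondin 2 (*THBS2*). None of the 6 was called. *THBS2* ranged from -2.63 to -1.37 in HF pigs, with a median of -1.90, and from -2.68 to -0.86 in LF pigs, with a median of -1.79.

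None of the 5 collagen folding and crosslinking genes was called, although *SERPINH1* was with array weights (-0.20). The collagen chaperone *SERPINH1* was at -0.13 ± 0.069 (limma, adjusted p = 0.219), lysyl hydroxylase 2 (*PLOD2*) at -0.12 ± 0.066 (limma, adjusted p = 0.242) and lysyl oxidase (*LOX*) at -0.12 ± 0.11 (limma, adjusted p = 0.505), while *LOXL2* and *PLOD1* gave -0.016 and 0.083. The median of the 5 was -0.12, against 0.088 for the fibrillar collagens and 0.31 for collagen VI. The other *LOX* probes lay above 0, so the median of the 5 depends on the *LOX* probe used, and the probes of *PLOD1* lay on both sides. Of the 5 genes, 1 lay above 0, beside 37.7% of all genes. The difference between these roles was not tested.

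Among the 7 proteases and inhibitors, *TIMP3*, the inhibitor that binds to the matrix itself, was down-regulated in HF pigs. It ranged from 5.39 to 6.17 in HF pigs, with a median of 5.87, and from 5.65 to 6.53 in LF pigs, with a median of 5.98. The difference was -0.20 ± 0.064 (limma, adjusted p = 0.0361), 19 of 24 LF pigs lay above the HF mean, and it was lower in HF pigs within all 6 slides. The call was lost with the 75th percentile scaling (-0.16, limma, adjusted p = 0.0926), with quantile normalization (-0.14, limma, adjusted p = 0.165) and with the array position as a block (-0.20, limma, adjusted p = 0.0982). *TIMP1* and *TIMP2* gave 0.043 and -0.016. The gelatinase *MMP2* gave 0.17 ± 0.079 (limma, adjusted p = 0.156) and its membrane-bound activator *MMP14* 0.11. *ADAMTS1*, a protease that cuts versican, was at -0.15 ± 0.12 (limma, adjusted p = 0.441), and the procollagen peptidase *ADAMTS2* at -0.069. Except for *TIMP3*, none of the 7 was called. *ADAMTS1* ranged from 1.53 to 2.95 in HF pigs, with a median of 2.20, and from 1.58 to 3.34 in LF pigs, with a median of 2.22.

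The 51 genes were read by 168 kept probes, of which 33 were called higher and 2 lower in HF pigs, a called share of 20.8% beside 13.1% of all kept probes. For all 6 called genes with more than 1 kept probe, every other probe pointed the same way. The other 9 *COL6A3* probes gave 0.28 to 0.58 and 8 of them were called, the other 7 *POSTN* probes gave 0.47 to 0.66 with 5 called, and the other 3 *COL1A2* probes gave 0.37 to 0.44, all called. Of the other 2 *COL6A2* probes, at 0.20 and 0.38, 1 was called, and 1 of the 2 shares all 60 bases with the brightest. The other *COL6A1* probe (0.23) and the other *COL12A1* probe (0.47) were not called. Probes of 1 gene read the same RNA, and 37 pairs of them share a run of 20 or more bases, so they are no replicates. Among *COL4A2*, *LAMA2*, *ELN*, *OGN* and *TIMP3*, each had a single kept probe. In 5 genes that were not called, another probe was: *COL3A1* (0.29), *COL5A2* (0.30), *COL4A1* (3 probes, 0.21 to 0.23) and *LAMC1* (0.18) higher in HF pigs, and *ADAMTS2* (-0.34) lower. In 8 of the 37 genes with several probes, at least 1 other probe pointed the other way. These were *COL5A2* and *LOX*, whose brightest probe stood alone, *LAMC1* and *PLOD1* with 1 probe each way, *SPARC* with 6 of 7 other probes above 0, *LUM* with 2 of 10 below 0, and *SPARCL1* and *TNC* with 1 such probe. The brightest *LOX* probe gave -0.12, and its other 2 probes 0.15 and 0.18.

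**Figure D3:**
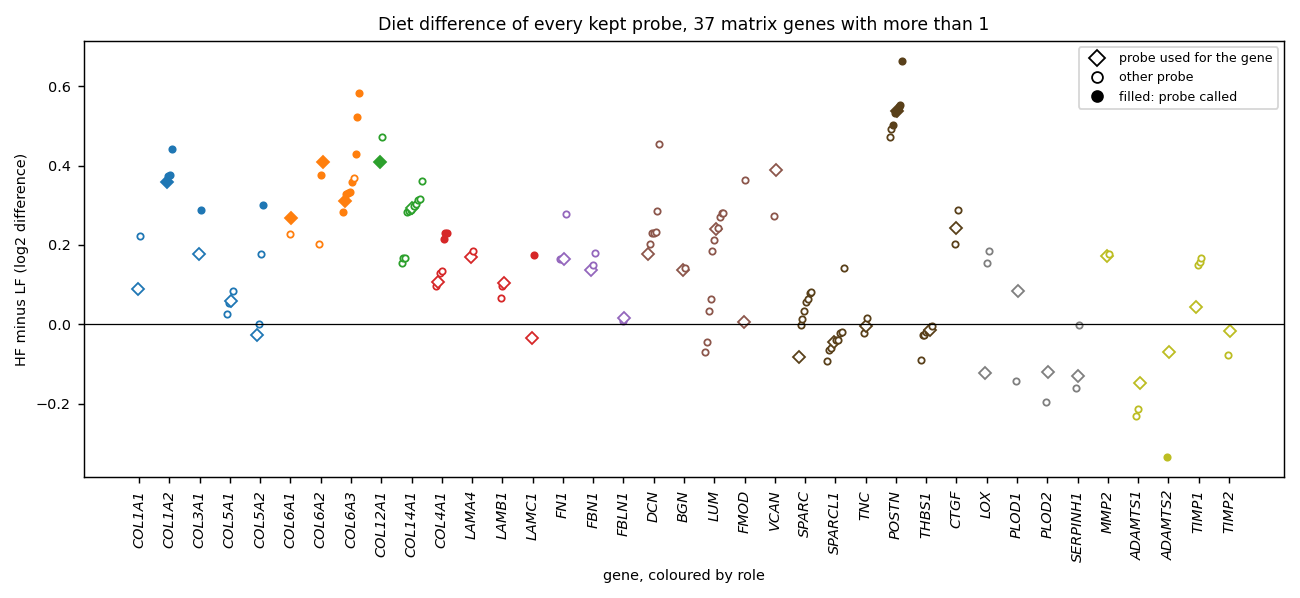
HF minus LF difference (log2) of every kept probe for the 37 matrix genes with more than 1, with diamonds for the brightest probe, circles for the others, filled symbols for called probes and colours for roles. All probes of *COL6A3* and *POSTN* lie above 0, whereas those of *LOX* and *PLOD1* lie on both sides.

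The calls depended on the arrays used. Within the first and second scan date, which held 24 arrays each, 0 and 1 of 51 matrix genes were called, beside 661 and 261 of 11098 genes. The 1 was *COL4A2*, at 0.056 on the first date and 0.36 on the second. All 11 genes kept their direction on both dates. Without the 3 arrays high in *MYLPF*, 4 of the 11 calls stood (*COL6A1*, *COL6A2*, *COL4A2* and *TIMP3*), and lysyl hydroxylase 2 (*PLOD2*), lower in HF pigs, was called in addition. The 7 genes that lost their call had differences of 0.27 (*OGN*) to 0.52 (*POSTN*), with limma adjusted p of 0.0907 to 0.165. Without the 3 arrays high in *DSP*, 6 of the 11 stood, namely those 4 with *COL1A2* and *POSTN*, and the 5 that lost their call had differences of 0.29 (*LAMA2*) to 0.49 (*ELN*). Without the 5 arrays under 70% well above background, 6 stood, with *LAMA2* and *POSTN* added to the 4, and the 5 others had differences of 0.30 (*OGN*) to 0.47 (*ELN*). All 7 skeletal muscle markers lay below 0 in HF pigs, at -0.51 to -0.085, with none called.

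Cell type markers were set beside these results. Of 9 fibroblast and progenitor markers, 7 lay above 0 in HF pigs and 1 was called, the progenitor receptor *PDGFRA* (0.31 ± 0.11 (limma, adjusted p = 0.0672)). The median difference of the 9 was 0.10. Their summed signal ranged from 8.42 to 9.08 (log2) in HF pigs and from 8.39 to 9.02 in LF pigs. That sum is weighted to *VIM*, the marker with the brightest probe (mean 8.31 in HF and 8.35 in LF pigs), which lay at -0.041. Of 9 adipocyte markers, 3 lay above 0 and 2 were called lower, the hormone gene *LEP* (-0.67 ± 0.16 (limma, adjusted p = 0.00511)) and the lipid droplet gene *CIDEA* (-0.36 ± 0.10 (limma, adjusted p = 0.0155)). No endothelial, mural, macrophage, blood or epidermal marker was called. The part of these cell types in the matrix results was not tested.

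Of 72 further matrix genes tested that were not among the 54, 5 rose and 6 fell in HF pigs, 15.3% in all beside the 12.6% of all genes. The genes that rose were the minor collagens *COL21A1* (0.51 ± 0.16) and *COL16A1* (0.35 ± 0.13), the collagen prolyl isomerase *FKBP10* (0.49 ± 0.10 (limma, adjusted p = 0.00159)), the collagen-degrading cathepsin *CTSK* (0.20 ± 0.073) and the cell surface proteoglycan *SDC4* (0.30 ± 0.09). Those that fell were the prolyl hydroxylase subunit *P4HB* (-0.14), lysyl hydroxylase 3 (*PLOD3*, -0.17), the procollagen C-proteinase *BMP1* (-0.19), the cathepsin *CTSB* (-0.15), the fibronectin receptor chain *ITGA5* (-0.16) and the TGF-beta mediator *SMAD3* (-0.27 ± 0.075 (limma, adjusted p = 0.0129)). By kind, 20 of 26 structural genes lay above 0, with a median of 0.17, and 5 of 13 collagen synthesis genes did, with a median of -0.0081. In collagen synthesis 1 gene rose and 3 fell, and among receptors and TGF-beta signalling 1 rose and 2 fell out of 21.

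Selection for RFI was compared across both diets. No matrix gene was called for line, where 1.17% of all genes were, and 10 of 51 matrix genes lay above 0, with a median of -0.088 (low RFI minus high RFI) beside 0.017 for all genes. At an unadjusted p under 0.05, 7 of 51 matrix genes passed, beside 1139 of 11098 genes. The largest difference was that of tenascin C (*TNC*), a matricellular protein of loose and remodelling matrix. It ranged from -2.26 to 1.53 in low RFI pigs, with a median of 0.34, and from -0.33 to 1.73 in high RFI pigs, with a median of 1.06. The difference was -0.71 ± 0.24 (limma, adjusted p = 0.185), with 20 of 24 high RFI pigs above the low RFI mean. *TNC* passed only in the fit with a block for the replicate number (limma, adjusted p = 0.0719), of 19 other settings. *ELN* had the smallest adjusted p. It ranged from 3.81 to 7.40 in low RFI pigs, with a median of 4.95, and from 4.59 to 7.06 in high RFI pigs, with a median of 5.81. The difference was -0.64 ± 0.19 (limma, adjusted p = 0.1), which missed the threshold, and it was negative within all 6 slides. It passed under 4 of 19 other settings: within the first scan date, with array weights, with the replicate number as a block and without the arrays high in *MYLPF*. By adjusted p the next gene after *ELN* and *TNC* was *COL15A1* (-0.23 ± 0.088 (limma, adjusted p = 0.255)), which was called within the first scan date (-0.43) and with array weights (-0.24). Within the second scan date *COL15A1* was at -0.033. By size, *FMOD*, which binds collagen I, followed *TNC* and *ELN* with -0.37 ± 0.23 (limma, adjusted p = 0.659). At the other end were the laminin chain *LAMB2* (0.12 ± 0.053 (limma, adjusted p = 0.36)), *TIMP3* (0.091 ± 0.064 (limma, adjusted p = 0.734)) and *LOX* (0.085 ± 0.11 (limma, adjusted p = 0.908)), whose other 2 probes pointed the other way (-0.22 and -0.15). *LAMB2* had a median of 3.45 in low RFI pigs and 3.32 in high RFI pigs. None of the 72 further matrix genes was called for line either, and *FKBP10* came closest (-0.35 ± 0.10 (limma, adjusted p = 0.0947)).

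**Figure D4:**
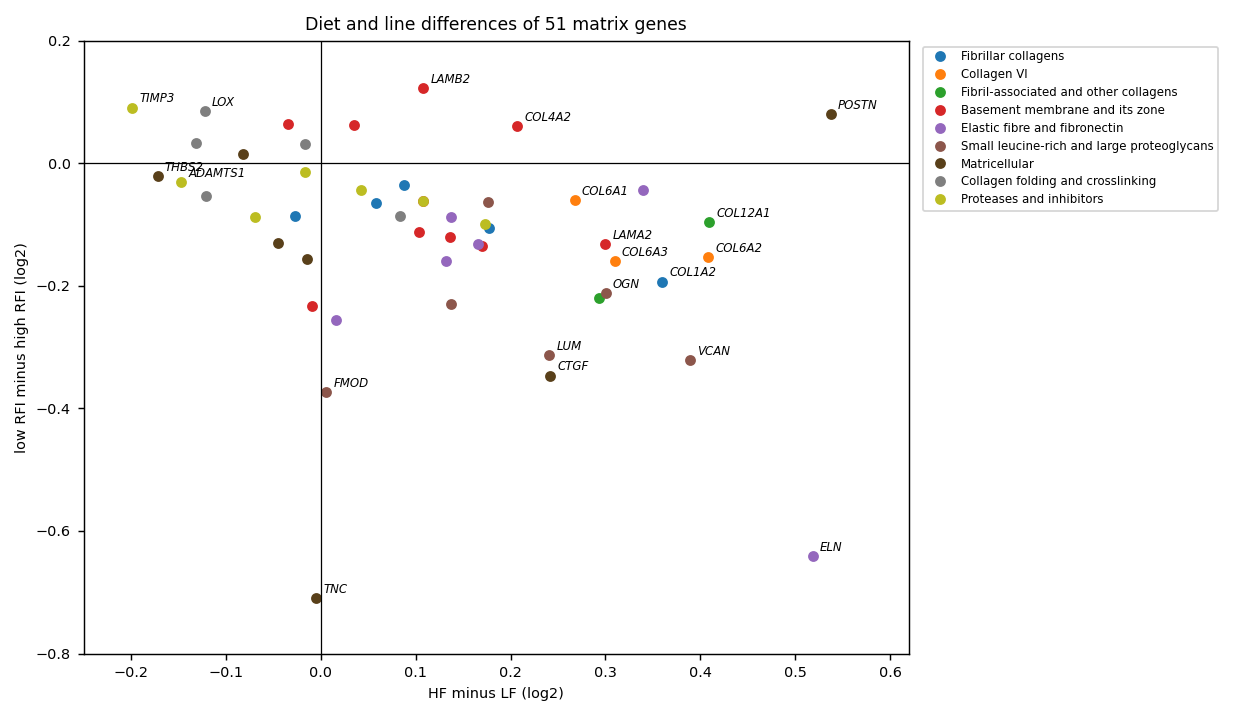
Each point is 1 of 51 matrix genes, placed by its diet difference (HF minus LF, log2) and its line difference (low RFI minus high RFI, log2) from the same fit, coloured by role. *ELN* stands at 0.52 and -0.64, and *TNC* at -0.005 and -0.71.

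The dietary difference was then compared between lines. No matrix gene was called for the interaction, as no gene on the array was (0% of all genes), and the smallest raw interaction p among matrix genes was 0.194 (*OGN*). At an unadjusted p under 0.05, 0 of 51 matrix genes passed, against 99 of 11098 genes. Within low RFI pigs alone 0 matrix genes were called, where 2.44% of all genes were, and within high RFI pigs 0, where 1.49% were, each with 12 pigs per diet. *COL6A2* differed by 0.41 in the low RFI line and 0.40 in the high RFI line, *COL1A2* by 0.34 and 0.38, *POSTN* by 0.43 and 0.65, and *OGN* by 0.44 and 0.16. The interaction was 0.011 ± 0.22 for *COL6A2* and -0.034 ± 0.26 for *COL1A2*. With SEs of this size small interactions can be missed, and a p above the threshold does not show equal responses.

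Matrix genes also varied together between pigs of the same group. After the 4 group means were removed, Pearson's r over 48 pigs had a median of 0.19 over the 1275 pairs of matrix genes, and a range of -0.67 to 0.93. The arrays share their labelling and scaling, so these correlations are a description. The collagen VI chains correlated with one another at 0.59 to 0.85 and with the fibrillar collagens at a median of 0.66, and the 2 fibril-associated collagens with each other at 0.74. The elastic fibre genes had a median of 0.57, and the highest pair of all was *FBN1* with *MFAP5* (0.93), followed by *COL14A1* with *DCN* (0.91). *COL1A2* followed *COL6A2* (0.83) and *COL1A1* (0.70). The basement membrane genes formed no such block, with a median of 0.18 among themselves and 0.086 with the fibrillar collagens, and the neighbours *COL4A1* and *COL4A2* correlated at 0.24. The matricellular genes had medians of -0.027 among themselves and 0.084 with the fibrillar collagens. Single genes departed from these medians. *POSTN* correlated at 0.83 with *COL3A1*, 0.64 with *COL1A2* and 0.59 to 0.77 with the collagen VI chains, and with the median of all other matrix genes *POSTN* stood at 0.61 and *LAMA2* at 0.56. *LOX* went against several basement membrane genes, at -0.67 with *LAMA4* and -0.51 with *COL4A1*, although its probes disagreed on diet. Against the median of the fibroblast and progenitor markers, *COL14A1* reached 0.88, *DCN* 0.87 and *MFAP5* 0.82, while *COL4A2* was at -0.03 and *POSTN* at 0.40. The other 8 genes called higher in HF pigs lay between 0.43 (*ELN*) and 0.69 (*COL1A2*). Against the median of the adipocyte markers, *LAMA2* was lowest at -0.68, followed by *FBLN1* (-0.66), *FBN1* (-0.61), *DCN* (-0.61) and *COL14A1* (-0.60). The highest was *COL15A1* at 0.40.

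**Figure D5:**
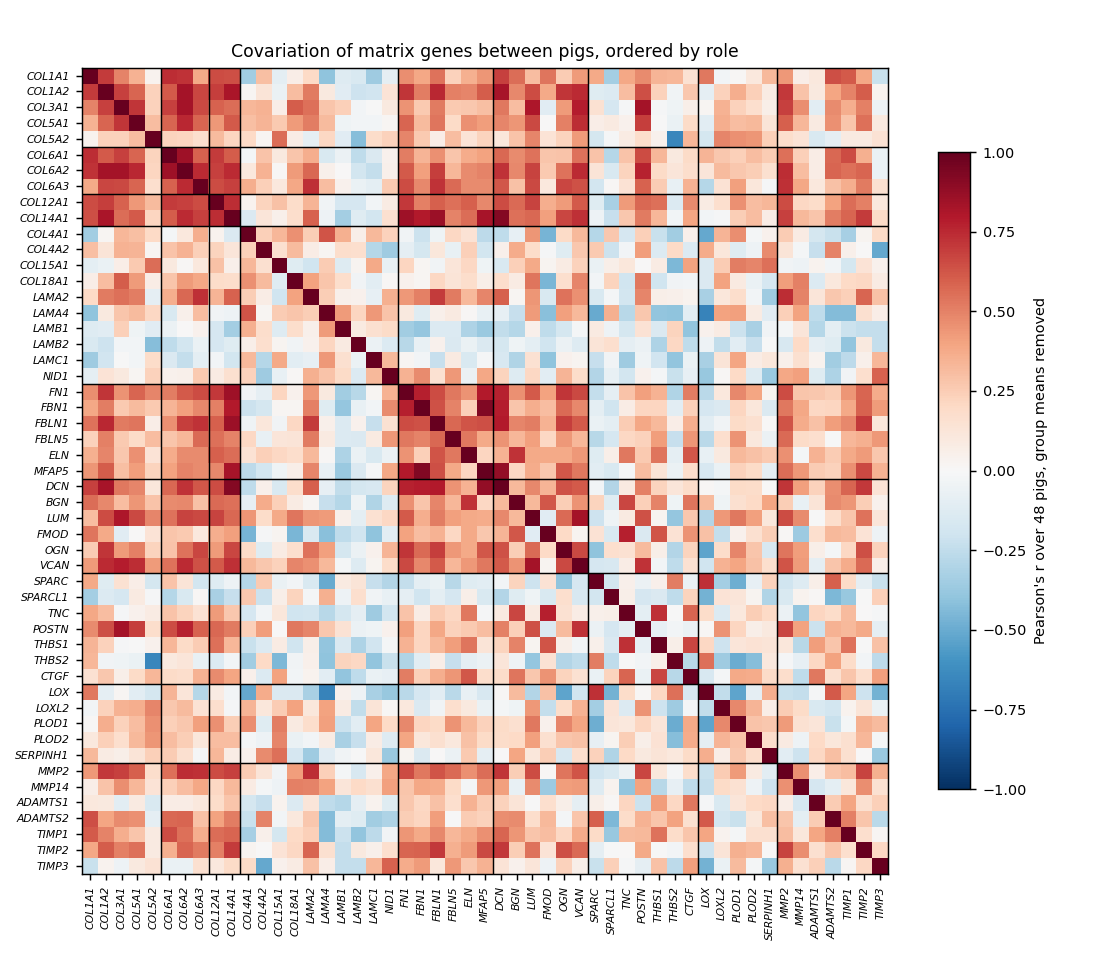
Pearson's r between matrix genes over 48 pigs after removal of the group means, with genes ordered by role and black lines between roles. The fibrillar, collagen VI, fibril-associated, elastic fibre and proteoglycan genes form a block of mostly positive r, and most basement membrane and matricellular genes have lower r with it (medians of 0.086 and 0.084 against the fibrillar collagens), with *LAMA2* and *POSTN* among the exceptions.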

How the data were processed

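Each RNA sample had been labelled with Cy3 by the authors and hybridized to a custom porcine array. The deposited scanner files, written by Agilent Feature Extraction 10.7.3.1 per the file headers, give a spot intensity on a linear scale after background subtraction, which was used here. A second deposited table holds log2 values of 38987 probes, made by the authors with R 2.10.0 per the submitters' notes. These were the log2 of the median brightness minus the array median, without background subtraction (all values matched within 1e-08), and served as an alternative.

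Control spots and flagged outlier spots were left out. Of 60306 spots, 44356 probes passed the filter given above. Values were log2 intensity minus the median of the array over kept probes. Probes were named by the array's gene names or accessions through the reference gene table of Sscrofa11.1, and no positions are given. Diet, line and interaction were fitted to 48 arrays with limma 3.58.1 in R 4.3.3 (lmFit, eBayes with an intensity trend, two-sided), in the place of the study's two-way analysis of variance, and tested on simulated data. The number of arrays limits the precision. Genes named with values are those called, the 3 largest and smallest differences for diet and for line, and members with discordant probes. Others were chosen after their values were seen. Members and lists were chosen with earlier results of these data known. Alternatives covered scaling, background, filters, probe choice, blocks and array subsets.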

Additional observations from a re-analysis of the deposited data

How the results depend on the processing

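Over 18 or 19 alternatives, the median difference of the matrix genes stayed between 0.056 and 0.16 for diet and between -0.11 and -0.053 for line, and no called gene changed sign. The number of matrix genes called for diet (11) was 5 with no filter on dim probes, 5 with the array signal as a covariate, 7 by analysis of variance, 0 within the first and 1 within the second scan date, and, in settings chosen after seeing the data, 6 without arrays under 70% well above background, 5 without arrays high in the muscle marker and 6 without those high in the epidermal marker. Of 19 alternatives, the call was lost under 12 for *COL6A3*, 11 for *ELN* and *COL12A1*, 8 for *OGN*, 7 for *COL1A2* and *LAMA2*, 5 for *TIMP3*, 3 for *POSTN*, 2 for *COL6A1* and *COL6A2* and 1 for *COL4A2*. Beside the scan dates, *TIMP3* was lost under the 75th percentile, quantile normalization and the array position as a block. The number called for line (0) was 3 within the first scan date, 2 with array weights and 1 without arrays high in the muscle marker. Within the low RFI line 2 were called with the slide as a block, 4 with array weights and 1 with the array signal as a covariate, and within the high RFI line 1 with array weights. Of the further matrix genes, 11 for diet became 7 with the mean of all probes, 5 and 2 within the scan dates, 20 with array weights and 5 with the array position as a block, and 0 for line became 1 with quantile normalization, the slide or the scan date as a block and within the first scan date, and 9 with array weights. Calls over all genes moved as well. In the main fit, 1400 of 11098 genes were called for diet and 130 for line. These counts were 2057 and 487 with array weights, and 993 and 52 with the array position as a block. With the array signal as a covariate they were 1832 and 151. Within the first scan date they were 661 and 114, and within the second 261 and 0. Without the arrays high in the muscle or the epidermal marker, 1296 and 1452 genes were called for diet. The causes were not tested.

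The labels do not say that replicate numbers pair pigs across groups, but each slide held the same 2 numbers of every group. Same-numbered arrays of different groups had a median r of 0.165, and different numbers one of -0.027. Of 72 same-numbered pairs, 45 had an r over 0.1, with a range of -0.22 to 0.46, and 18 of 48 arrays correlated best with their own number. With the replicate block, 9 matrix genes were called for diet, 2 for line (*ELN* and *TNC*) and 2 for diet within the low RFI line, and of the further matrix genes 12 for diet and 1 for line. Of all 11098 genes, 1691 were called for diet and 290 for line with this block, against 1400 and 130 without it.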

Other observations

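The spread between pigs was also compared between diets, as values with no test. With the line means removed, the SD was larger in LF pigs for 41 of 51 matrix genes, or 80.4%, and for 62.9% of all genes, with median ratios of LF over HF of 1.11 and 1.08. The largest ratios were those of *OGN* (0.49 in LF and 0.21 in HF pigs) and *COL1A2* (0.61 and 0.27), followed by *DCN* (0.50 and 0.25). The SD was larger in LF pigs for all 3 collagen VI chains, both fibril-associated collagens, all 6 proteoglycan, all 5 folding and crosslinking and all 7 protease and inhibitor genes. It was also larger for 4 of 5 fibrillar collagens, 5 of 6 elastic fibre and fibronectin genes, 5 of 7 matricellular genes and 4 of 10 basement membrane genes.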
